A study of Mus musculus with 4 samples.

Results

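Non-dividing Lgr5 crypt-base cells are the cells of the colon that carried transcripts of the stem cell genes Lgr5, Smoc2 or Ascl2 but almost none of the proliferation genes Mki67 and Top2a. They were chosen by counts alone. A cell needed 1000 or more UMIs (unique molecular identifiers, each a captured transcript) from 250 or more genes, with mitochondrial UMIs at 25% or less. It also needed 3 or more UMIs of the epithelial genes Epcam and Krt8 together, 2 or more of Lgr5, Smoc2 and Ascl2 together, and at most 1 of Mki67 and Top2a together. Limits on goblet (Muc2 under 5 UMIs), enteroendocrine (Chga and Chgb, at most 2), surface absorptive (Aqp8 and Clca4a under 5, Fxyd4 and Tgm3 under 5, Car1 under 0.1% of UMIs) and leukocyte genes (Ptprc at 0, S100a8 and S100a9 under 0.5% of UMIs) were set against other types. The gate kept 263 cells, 202 in batch 1 and 61 in batch 2. These were 3.53% of the 7456 epithelial cells and 2.00% of the 13158 cells that passed the depth, gene and mitochondrial limits.

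Colon cells of C57/BL6J mice were profiled by droplet 3′ single-cell RNA sequencing in 2 batches, each 1 pool of 4 conditions marked by hashtag antibodies and sorted for living cells. The conditions were untreated wild type, untreated JUP-KO, DSS-treated wild type and DSS-treated JUP-KO. Dextran sulfate sodium (DSS) damages the colon epithelium and brings on colitis, and Jup encodes plakoglobin, a catenin of cell junctions. The antibody features are named Ctrl_WT, Ctrl_DSS, TG_WT and TG_DSS. Ctrl_WT is untreated wild type and TG_DSS is DSS-treated JUP-KO whichever way the tags are read. If names are followed, TG_WT marks untreated JUP-KO cells and Ctrl_DSS marks DSS-treated wild-type cells, and if the order of the antibody numbers is followed, the reverse holds. The age and sex of the mice, the dose and days of DSS, and the cells in which Jup was deleted are not given in the sources used here. Nor do they say whether the batches were separate mice, how many mice a pool held, or which exons of Jup were removed.

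The colon lining is renewed from the bottom of its crypts, where stem cells marked by the Wnt co-receptor Lgr5 divide and give rise to absorptive and secretory cells that move up to the surface. Wnt signals keep the stem cell state, and the transcription factor Ascl2 is both a target and a driver of that program. Smoc2 is a secreted matrix protein found in these cells. In mm10 Lgr5 lies on chromosome 10 (115450311 to 115587780, minus strand), Smoc2 on chromosome 17 (14279506 to 14404790, plus strand) and Ascl2 on chromosome 7 (142966829 to 142969264, minus strand). Crypt cells also secrete chloride and fluid through Cftr, helped by the uptake carrier Slc12a2 and potassium channels such as Kcnq1.

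Batch 1 held 133919905 gene UMIs and batch 2 held 95408149. The depth, gene and mitochondrial limits left 6914 and 6244 cells, beside the 14000 per batch that the protocol set out to capture. The crypt-base cells had a median of 16127.5 UMIs in batch 1 (range 2091 to 36750) and 18424 in batch 2 (3103 to 60750). Dividing cells of the same gate, with 3 or more UMIs of Mki67 and Top2a, numbered 199 and 60 and were deeper, at medians of 26611 and 32415 UMIs. The remaining 4295 and 2639 epithelial cells had medians of 16779 and 15149. Levels are UMIs per 1000000 UMIs (CPM) of the summed cells of a class in a batch, with exact Poisson 95% intervals that cover counting error only. No member barcode was shared between the batches.

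The gate was set on counts of these same cells, so every difference from other cells is a description, with no test. A gene was measured where it averaged 10 CPM or more over the batches in either class, and was called higher or lower where it differed 2-fold or more in both batches after 5 CPM were added to each level. By that rule 284 of 8950 genes (3.17%) were higher in the crypt-base cells than in the remaining epithelial cells and 555 (6.20%) were lower. Against the dividing crypt-base cells 19 of 8867 (0.214%) were higher and 234 (2.64%) lower.

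The 6 marker genes of the label were all higher than in the remaining epithelium. Lgr5 stood at 75.3 CPM in batch 1 (66.3 to 85.3) and 40.4 in batch 2 (29.9 to 53.4), against 4.22 and 2.03 in the remaining epithelial cells. Smoc2 was at 139 and 104 CPM against 10.2 and 4.90. Ascl2 was at 63.0 and 81.6 CPM against 4.07 and 2.49. These genes set the gate, and the Lgr5 intervals of the batches did not overlap. Htr4, a serotonin receptor that the gate did not use, was at 263 CPM (246 to 281) and 168 (146 to 193), against 52.8 and 22.1. Kcnq1 was at 237 and 172 CPM against 53.2 and 28.3. Cftr was at 290 and 283 CPM against 107 and 69.1. In both batches the intervals of the crypt-base cells for these 3 genes lay above the values of the remaining cells.

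**Figure D1:**
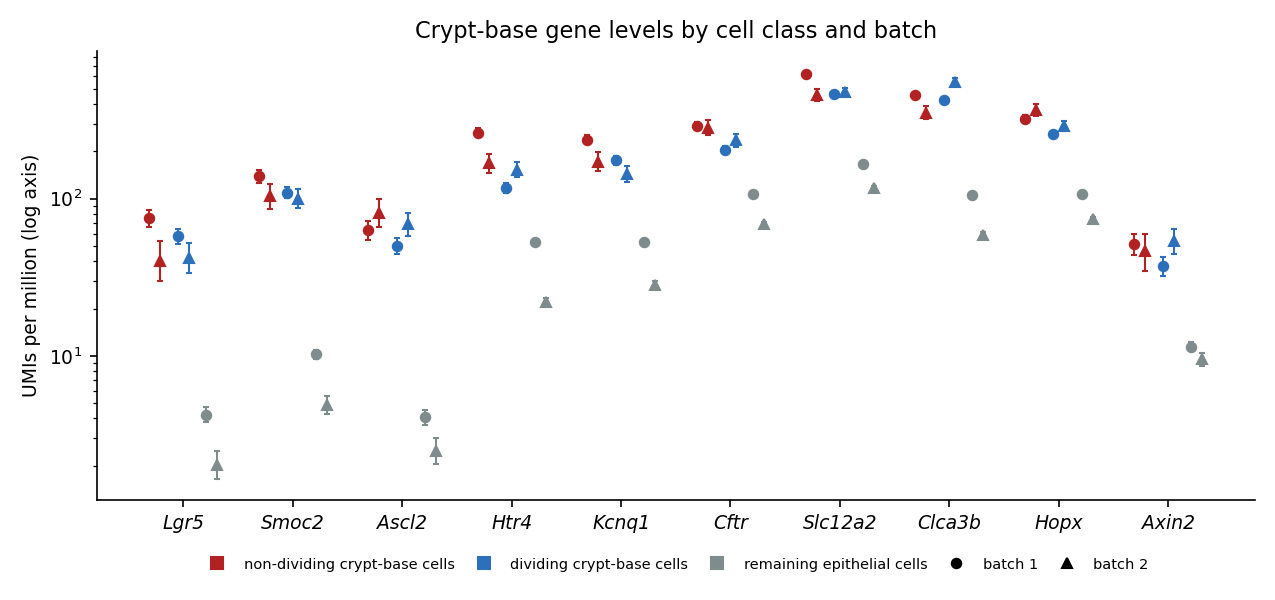
Levels of 10 crypt-base genes in CPM (log axis) in non-dividing crypt-base cells, dividing crypt-base cells and remaining epithelial cells, with a circle for batch 1, a triangle for batch 2 and bars for the exact Poisson 95% interval. Both crypt-base classes sit above the remaining cells for every gene drawn, as with Slc12a2 at 620 and 457 against 167 and 117.

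Shares of cells with a UMI are given at full depth and at a common depth. Lgr5 was detected in 52.0% and 34.4% of the crypt-base cells and in 52.3% and 48.3% of the dividing ones. After thinning every cell to 3000 UMIs, which left out 4 crypt-base cells of batch 1 and 261 and 180 of the remaining epithelial cells, Lgr5 was in 20.7% and 19.7% of crypt-base cells, 15.1% and 11.7% of dividing ones, and 0.744% and 0.488% of the remaining cells. Lgr5 is a gate gene, so its higher share than in the remaining cells followed from the rule. The gate counted stem gene UMIs at full depth, and the dividing cells were deeper. A shallower cell needed a larger fraction of stem gene UMIs to pass, which thinning after the gate does not undo. The Lgr5 order of crypt-base and dividing cells after thinning is therefore not a depth-corrected difference. For Htr4, which the gate did not use, the thinned shares were 40.4% and 31.1%, 27.6% and 35.0%, and 9.49% and 4.11%. Leukocyte-gated cells, which should lack Htr4 and had median depths of 3154.5 and 4363 UMIs, had an Htr4 UMI in 0.533% and 0.415% of cells after thinning (0.563% and 0.296% before).

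Lgr5 itself was seen in 126 of the 263 cells, 105 of 202 in batch 1 and 21 of 61 in batch 2. All 3 stem genes were seen together in 52 cells. Another 64 cells qualified on Smoc2 alone and 33 on Ascl2 alone, against 9 on Lgr5 alone. The median cell held 3 UMIs of the 3 genes in both batches, and the richest held 21 and 15. Exactly 2, the lowest number allowed, was found in 65 and 21 cells.

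Levels on both sides of that limit depended on the gene. In batch 1 Slc12a2 stood at 183 CPM in cells that met every other limit but had no stem gene UMI, 392 with 1 UMI, 524 with 2, 592 with 3 or 4 and 721 with 5 or more. The same steps in batch 2 were 150, 252, 433, 343 and 595 CPM, with a lower value at 3 or 4 than at 2. Clca3b, a member of the calcium-activated chloride channel regulator family, went from 118 to 620 CPM over the same steps in batch 1 and from 93.5 to 563 in batch 2. Htr4 had no such order at the limit, with 146, 199, 181, 186 and 387 CPM over these steps in batch 1 and 78.2, 102, 229, 117 and 140 in batch 2. Cftr in batch 1 was at 217 CPM without a stem gene UMI, 196 with 1 and 219 with 2. The excluded cells with 1 stem gene UMI numbered 90 and 20, and their levels lay between those of the cells without a UMI and those of the members for Slc12a2 and Clca3b in both batches. On the proliferation limit, the 36 and 12 cells left out with 2 UMIs of Mki67 and Top2a had 499 and 681 CPM of Slc12a2.

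Of the crypt-base stem cell list, 15 of 20 measured genes were higher than in the remaining epithelium and 0 were lower (median log2 ratio 1.81, against 0.09 over all genes). The 15 include the 3 gate genes and the 3 further markers, and the list was drawn up with earlier results of these cells known. Slc12a2, the sodium, potassium and chloride carrier that loads chloride for secretion, was at 620 CPM (594 to 648) and 457 (419 to 496), against 167 and 117. Clca3b was at 456 and 352 CPM against 106 and 58.8. Sox9, a transcription factor of crypt progenitors, was at 230 and 274 CPM against 97.5 and 90.3. Lrig1, which restrains the EGF receptor in crypt stem cells, was at 138 and 141 CPM against 40.7 and 28.4. Prom1 was at 77.8 and 38.7 CPM against 107 and 139, and so was not above the remaining cells in either batch. Olfm4, a stem cell marker of the mouse small intestine, had 0 UMIs in both batches (upper limits 1.11 and 3.04 CPM).

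The ion transport list was drawn up from genes of crypt ion transport and its receptors. Of 15 measured genes, 5 were higher (Cftr, Htr4, Kcnq1, Slc12a2 and Kcne3, the partner subunit of Kcnq1), 1 was lower and 9 were neither (median 0.51). Over all genes 3.17% were higher and 6.20% lower. Cftr, Htr4 and Kcnq1 are also markers of the label, which were chosen with earlier results of these data known. Kcne3 was at 220 and 296 CPM against 85.4 and 59.4 in the remaining epithelium. The calcium-activated chloride channel Ano1 was the lower one, at 3.60 and 9.89 CPM against 53.9 and 73.6. The muscarinic receptor Chrm3 (24.0 and 14.0 CPM against 11.2 and 9.77) and the sodium pump subunit Atp1b1 (550 and 545 against 778 and 927) were among the 9.

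Wnt pathway genes were listed by role, and the lists were not tested against each other. Of the receptors and signal carriers, 1 of 14 measured genes was higher, the receptor Fzd7 (14.7 and 12.4 CPM against 3.74 and 2.57), and the median log2 ratio was 0.06. That count is near the 3.17% of all genes that were higher and does not set the list apart. Lgr4, a relative of Lgr5 that binds the same R-spondin ligands, was level with the remaining cells at 95.5 and 94.0 CPM against 103 and 95.4. Tcf7l2, a nuclear partner of beta-catenin, was at 176 and 142 CPM against 347 and 447. Of the Wnt targets and feedback genes, 9 of 11 were higher and 0 lower (median 1.67), beside 3.17% and 6.20% of all genes. Lgr5 and Ascl2, whose levels the gate fixed, are among the 9. Axin2, a feedback inhibitor, was at 51.3 CPM (43.9 to 59.6) and 46.2 (34.9 to 59.9), against 11.4 and 9.50. The ubiquitin ligases Rnf43 and Znrf3, which remove Wnt receptors from the surface, were at 86.8 and 75 against 26.3 and 18.3 CPM, and at 98.2 and 43.7 against 26.1 and 13.8 CPM. Myc was at 55.8 and 82.4 CPM against 17.8 and 10.8. Ccnd1, cyclin D1, was at 146 and 130 CPM against 99.5 and 62.7, and with Ephb2 made up the 2 targets that did not reach 2-fold.

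In the Notch pathway list 2 of 9 measured genes were higher and 1 was lower (median 0.66), beside 3.17% and 6.20% of all genes. Hes1, the target that holds back secretory fate, was at 625 CPM (599 to 653) and 1044 (988 to 1103), against 241 and 209. The receptor Notch1 was at 27.0 and 22.3 CPM against 7.91 and 3.9. The secretory fate factor Atoh1, which Hes1 represses, was at 6.0 and 16.5 CPM against 42.8 and 54.4. The ligand genes Dll1 (3.00 and 4.12 CPM against 3.42 and 3.78) and Dll4 (5.70 and 4.12 against 3.72 and 3.65) were too low to be measured.

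In the EGF receptor list Lrig1 was higher and the ligand gene Nrg1 lower (0.30 and 0.82 CPM against 35.1 and 26.7), of 12 measured. In the BMP and TGF-beta list the ligand gene Bmp2 was the only gene past the limit of 15 measured, lower at 6.60 and 4.12 CPM against 30.6 and 44.4. The BMP targets Id1 (362 and 392 CPM against 452 and 411) and Id3 (113 and 187 against 210 and 238) did not reach 2-fold. The counts of both lists are near the shares of all genes (3.17% higher and 6.20% lower) and do not set them apart.

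Of the reserve and injury-associated stem cell genes, 1 of 12 measured was higher and 3 were lower (median -0.15), or 1 and 4 of 11 (median -0.54) without 13 members that carried transcripts of other cell types, described further on. Over all genes 3.17% were higher and 6.20% lower, or 3.15% and 6.53% without the 13. Hopx, a marker given to slow-cycling crypt cells, was the higher one at 321 CPM (302 to 341) and 367 (333 to 403), against 108 and 74.1. The dividing crypt-base cells had 258 and 290 CPM of it. Ly6a, which encodes Sca-1 and is known from the regenerating colon, was lower at 36.3 and 51.9 CPM against 547 and 653. The other two were Anxa3 (26.7 and 55.2 CPM against 125 and 158) and Sprr1a (0.60 and 0.82 against 28.7 and 35.4). Bmi1 (6.90 and 14.0 CPM against 7.92 and 8.36) and Tert (2.10 and 1.65 against 0.49 and 0.42) were sparse.

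Genes at 50 CPM or more in both batches were also ranked by the smaller of their 2 batch ratios over the remaining epithelium. First by that rule was Fut9, a fucosyltransferase, at 108 and 63.5 CPM against 9.97 and 4.47 (log2 ratios 2.91 and 2.85). Rgcc, a regulator of the cell cycle, was at 250 and 286 CPM against 31.3 and 17.8 (2.81 and 3.67). Ifitm3, an interferon-inducible membrane protein of the interferon response list, was at 581 and 604 CPM against 84.7 and 92.7 (2.71 and 2.64). Sox4, a transcription factor of progenitors, was at 229 and 164 CPM against 48.6 and 31.1. Further genes among the 20 highest by this rule were Cttnbp2, Acot1, Dach1, Grip1, Stox2, Arid5b and the non-coding RNA genes Gm20275 and Zfas1, with log2 ratios between 1.67 and 2.81 in every batch. Their levels in the dividing crypt-base cells reached from 31.6 CPM for Cttnbp2 in batch 2 to 198 for Gm20275 in batch 2.

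**Figure D2:**
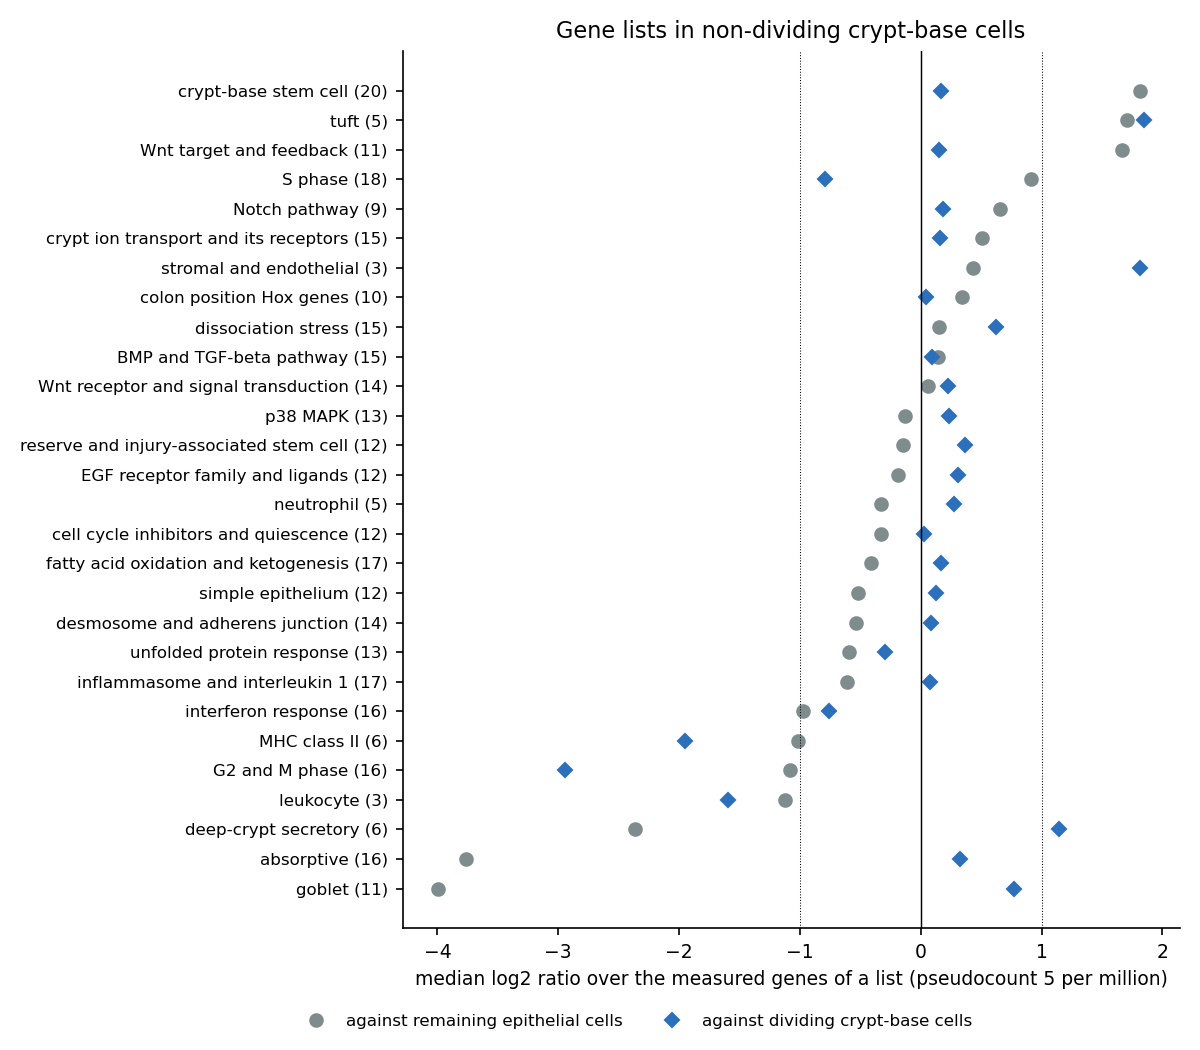
Median log2 ratio of the measured genes of each list in non-dividing crypt-base cells against remaining epithelial cells (grey circles) and against dividing crypt-base cells (blue diamonds), with the number of genes measured against the remaining cells in brackets and dotted lines at 2-fold. The stem cell list is at 1.81 against the remaining cells and 0.16 against dividing cells, while the G2 and M phase list is at -1.08 and -2.94. The enteroendocrine list, with under 3 genes measured against dividing cells, is not drawn.

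Both crypt-base classes passed the same limit on Lgr5, Smoc2 and Ascl2. Of 20 measured stem cell list genes, 0 were higher and 0 lower in the non-dividing than in the dividing class (median 0.16), and the same held for the 11 Wnt targets (0.15). With 0.214% of all genes higher and 2.64% lower, such counts are near the background and do not set these lists apart. Htr4 was at 263 against 117 CPM in batch 1 but 168 against 153 in batch 2. The cell cycle lists did differ, which the gate fixed through Mki67 and Top2a. All 20 G2 and M phase genes were lower (median -2.94). Cdk1, the kinase that starts mitosis, was at 20.1 and 21.4 CPM against 140 and 150. Birc5, survivin, was at 18.6 and 20.6 CPM against 280 and 260, and Ube2c, which serves the anaphase-promoting complex, at 19.5 and 15.7 against 374 and 357. The histone gene Hist1h1b was at 5.40 and 3.30 CPM against 274 and 292.

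S phase genes, which the gate did not name, differed less. Of 21 measured genes, 4 were lower than in the dividing cells (Rrm1, Rrm2, Tyms and Uhrf1), with a median of -0.79. Rrm2, a subunit of the enzyme that makes deoxynucleotides, was at 6.30 and 7.42 CPM against 70.3 and 43.1. Pcna, the clamp of replicating DNA polymerase, was at 90.4 and 72.5 CPM against 174 and 149, and Mcm2, part of the replicative helicase, at 22.5 and 20.6 against 23.3 and 23.5. Beside the remaining epithelium the list's median was 0.91, with 0 of 18 genes past 2-fold in both batches.

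**Figure D3:**
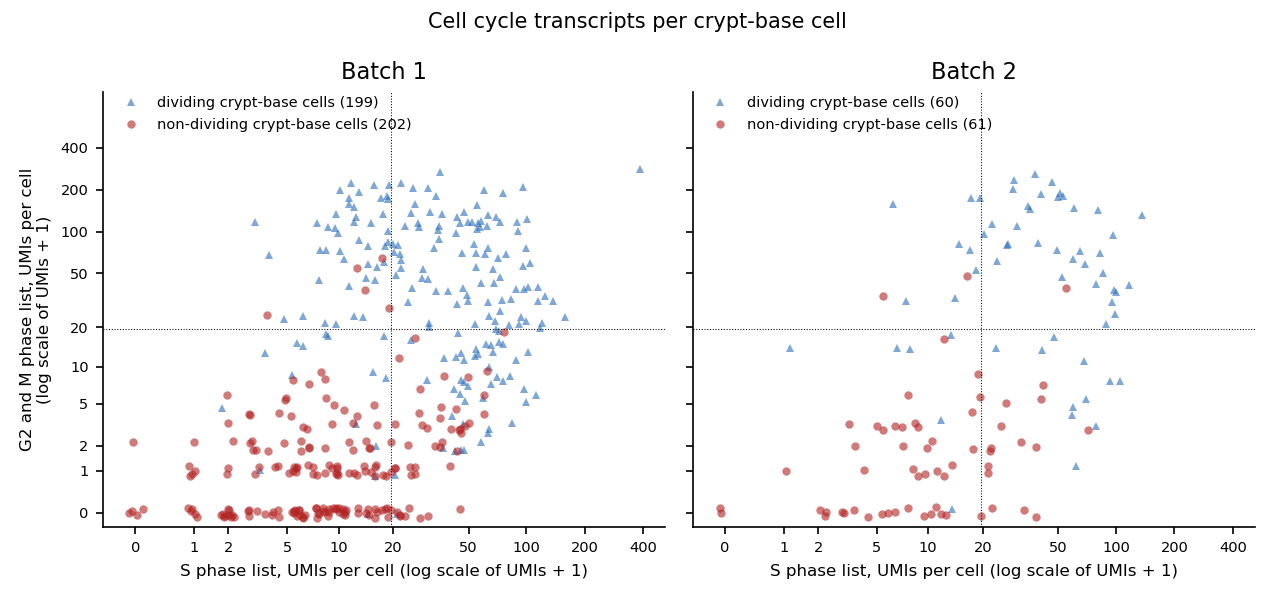
UMIs of the S phase list and of the G2 and M phase list in each non-dividing (red circles) and dividing (blue triangles) crypt-base cell of batch 1 and batch 2, on log scales of UMIs + 1 with a small random shift so that points do not cover each other, and dotted lines at 20 UMIs. Most non-dividing cells (75.7% and 67.2%) lie at 0 to 2 G2 and M phase UMIs and spread over the S phase axis, and 8 lie at 20 or more G2 and M phase UMIs.

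Per cell, the G2 and M phase list had at most 2 UMIs in 75.7% of the crypt-base cells of batch 1 (95% Clopper-Pearson interval 69.2 to 81.5) and 67.2% of batch 2 (54.0 to 78.7), against 5.53% and 3.33% of dividing cells. The S phase list had 20 or more UMIs in 21.3% (15.9 to 27.6) and 27.9% (17.1 to 40.8), against 71.4% and 78.3%. Dividing cells had more UMIs, and after thinning to 3000 UMIs the mean S phase count was 2.35 and 2.07 per crypt-base cell, 5.05 and 4.02 per dividing cell and 1.39 and 0.799 per remaining cell. On the same thinned scale the G2 and M phase list had 0.556 and 0.623 UMIs per crypt-base cell, against 6.74 and 6.02 per dividing cell. A few members, 5 in batch 1 and 3 in batch 2, carried 23 to 60 UMIs of the G2 and M phase list although Mki67 and Top2a together had at most 1.

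Of 12 measured inhibitors of the cell cycle 0 were higher than in the remaining epithelium, which is near the 3.17% of all genes. Lower were 2, namely Cdkn1a (p21, 19.8 and 33.0 CPM against 125 and 160) and Cdkn2b (p15, 5.10 and 4.12 against 47.2 and 68.4). Cdkn1b, p27, was at 53.4 and 58.5 CPM against 55.4 and 51.9, and at 62.7 and 70.4 in the dividing cells. The quiescence-linked Btg2 was at 160 and 190 CPM against 191 and 195 in the remaining and 97.4 and 87.6 in the dividing cells.

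Genes of mature cells were low, and the gate itself left out cells rich in Muc2, Chga, Chgb, Aqp8, Clca4a, Fxyd4, Tgm3 and Car1. Of 16 absorptive genes 15 were lower than in the remaining epithelium, of 11 goblet genes 10, and of 8 enteroendocrine genes 6, beside 6.20% of all genes. Of 6 measured deep-crypt secretory genes 4 were lower, namely Agr2, Spink4, Reg4 and Mptx1. Among genes outside the gate, the carbonic anhydrase Car4 was at 8.71 and 20.6 CPM against 510 and 976, and the lectin-like mucus protein Zg16 at 49.8 and 52.8 against 6986 and 12699. The surface keratin Krt20 was at 14.7 and 44.5 CPM against 497 and 860. Keratin 8, one of the gate's epithelial genes, was also lower, at 1100 and 1484 CPM against 2847 and 3576. Free RNA, read from barcodes with at most 100 UMIs, held 5043 and 10521 CPM of Zg16 and 1109 and 537 CPM of Mptx1. Its part in the low levels of the crypt-base cells was not tested.

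Among genes at 50 CPM or more in both batches, 2 were higher than in dividing crypt-base cells with and without the 13 members that carried transcripts of other types. Ttr, transthyretin, was at 181 and 229 CPM against 85.6 and 96.2. Mptx1, a pentraxin of deep-crypt secretory cells, was at 70.2 and 185 CPM against 29.5 and 3.35. The Mptx1 level rested on few cells, since 1 member of batch 1 held 168 and 1 member of batch 2 held 221 of the 234 and 224 Mptx1 UMIs.

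Some members carried many transcripts of other cell types. There were 8 cells, 7 in batch 1 and 1 in batch 2, with 8 to 249 UMIs of the tuft list, with Dclk1 in 6, Trpm5 in 7 and Rgs13 in 7 of them. Tuft cells are chemosensory cells of the epithelium. Another 5 cells, 2 in batch 1 and 3 in batch 2, had 29 to 210 UMIs of the stromal and endothelial list, led by Dcn (19 to 170 UMIs), and 67 to 295 UMIs of C3, a complement gene. These 5 had 0 UMIs of Lgr5 and Ascl2 and qualified on 3 to 5 UMIs of Smoc2, with 5 to 23 of Krt8 and 0 to 4 of Epcam. They also carried Msln, Igfbp6 and Mgp, and their leading genes go against the name of the gate. Beside these 13 cells, 6 more had 115 to 907 UMIs of the goblet list with Agr2 in each, and 1 had 23 UMIs each of the enteroendocrine factors Neurog3 and Neurod1.

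The 13 cells with 5 or more tuft-list or stromal-list UMIs set several values. Over all members the 10-gene tuft list stood at 192 and 85.7 CPM, against 20.2 and 14.1 in the remaining epithelium, and at 12.4 and 18.7 without the 13. The 12-gene stromal and endothelial list stood at 45.9 and 355 CPM against 60.5 and 122, and at 10.5 and 4.25 without them. With all members, the tuft genes Dclk1 and Sh2d6 were higher than in the remaining epithelium. Without the 13, 0 tuft genes were measured, and Dclk1 went from 59.1 and 31.3 CPM to 0.31 and 0. C3 was at 64.8 and 547 CPM with all members and at 0.62 and 0 without the 13, and Slpi, an antiprotease, at 81.0 and 526 and then 3.72 and 4.25. Of the genes higher than in dividing cells, 19 became 5 of 8777 (0.0570%), while 234 lower became 233 (2.65%). Against the remaining epithelium the counts were 280 higher (3.15%) and 580 lower (6.53%) of 8881. The counts for the stem cell list, 15 of 20 higher, and for the Wnt targets, 9 of 11 higher, were equal with and without the 13. The leukocyte list, in which Ptprc was at 0 by the gate, stood at 244 and 112 CPM in all members against 300.2 and 461 in the remaining epithelium, with 1 of 3 measured genes lower (Jchain). The neutrophil list stood at 70.8 and 86.5 CPM against 157 and 216, with 1 of 5 lower (Ly6g).

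Class II major histocompatibility (MHC) genes, which present antigen to helper T cells and are known in inflamed epithelium, varied widely among the members. The 7-gene list stood at 345 CPM (325 to 365) in batch 1 and 140 (120 to 163) in batch 2. The remaining epithelial cells had 426 and 547 CPM and the dividing crypt-base cells 655 and 1249. The dividing class also held more of the leukocyte list, which includes Cd74, at 487 and 922 CPM against 244 and 112 in the members. Of 5 measured leukocyte genes, 3 (Fcer1g, Lyz2 and Tyrobp) were lower in the members than in the dividing cells. In batch 2, 1 dividing cell held 602 class II UMIs. The part of such cells in the dividing level was not tested. None of the 6 measured genes passed 2-fold in both batches against the remaining cells, and 1, H2-Eb1, was lower than in the dividing cells (0 without the 13). At least 10 UMIs of the list were in 31 of 202 crypt-base cells of batch 1 (15.3%, 10.7 to 21.1) and 5 of 61 of batch 2 (8.2%, 2.72 to 18.1). No UMI of the list was found in 84 and 31 members, and the richest had 71 and 41.

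The members of batch 1 with 10 or more class II UMIs also had more transcripts of some interferon-inducible genes, and none of these 31 was among the 13 cells with other types' transcripts. Their Cd74, the class II invariant chain, was at 1015 CPM (933 to 1103) against 36.3 (29.6 to 44.2) in the 171 others, which follows from the split. The interferon response list stood at 1540 CPM against 731 in batch 1 and 1766 against 817 in batch 2. Without the 13 cells it stood at 1288 against 705 in batch 2. In batch 1 the interferon-inducible GTPase Iigp1, outside the list, was at 250 CPM (210 to 295) against 1.80 (0.58 to 4.2). The immunoproteasome subunit Psmb8 was at 190 CPM (155 to 230) against 39.2 (32.2 to 47.3) in batch 1. The interferon-regulated transcription factor Irf1 was at 47.1 CPM (30.7 to 68.9) against 46.4 (38.8 to 55.2) in batch 1. In batch 2 Irf1 was at 249 CPM (170 to 351) against 40.6 (29.5 to 54.5). The S phase list stood at 1147 CPM against 748 in batch 1 and 646 against 739 in batch 2. In the 5 cells of batch 2, 1 of them among the 13, Psmb8 was at 280 CPM against 37.8. The surface keratin Krt20 was at 350 CPM (255 to 468) in these 5 cells against 8.30 (3.79 to 15.8) in the others of batch 2, and at 1.81 against 17.3 in batch 1, and its part in the split was not tested. Lgr5 was at 79.6 CPM (57.9 to 107) against 74.5 (64.7 to 85.4) in batch 1, and had 0 UMIs in the 5 cells of batch 2. Leukocyte-list transcripts other than Cd74 had a median of 0 and a maximum of 2 UMIs in the 31 cells, and 22 of them had none.

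**Figure D4:**
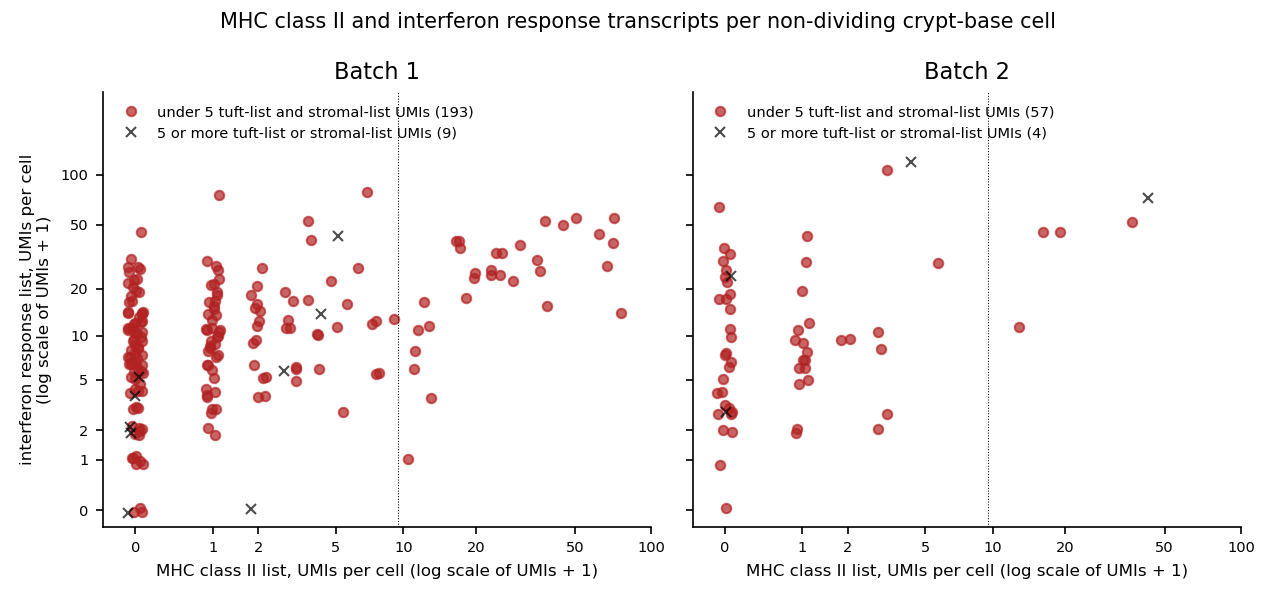
UMIs of the MHC class II list and of the interferon response list in each non-dividing crypt-base cell, on log scales of UMIs + 1 with a small random shift, with crosses for the 13 cells with 5 or more tuft-list or stromal-list UMIs and a dotted line at 10 class II UMIs. To the right of the line lie 31 cells of batch 1 and 5 of batch 2, and 29 and 5 of these had 5 or more interferon response UMIs, as did 132 of 171 and 40 of 56 to its left.

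Over all members the interferon response list had 1 of 16 measured genes higher than the remaining epithelium, Ifitm3, and 7 lower (median -0.97), beside 3.17% and 6.20% of all genes. The lower ones were Gbp2, Ifit1, Ifit2, Irf7, Isg15, Oasl2 and Zbp1. Isg15, a ubiquitin-like modifier, was at 7.20 and 10.7 CPM against 41.9 and 149. The class I genes H2-K1 and H2-D1, picked after their values were seen, were lower as well, with H2-K1 at 240 and 321 CPM against 525 and 709 and H2-D1 at 267 and 342 against 594 and 775. They were near the 270 and 300 CPM of H2-K1 and 292 and 339 CPM of H2-D1 in the dividing crypt-base cells.

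Jup, the gene targeted in the mice (ENSMUSG00000001552, mm10 chromosome 11, 100368958 to 100397763, minus strand), was at 18.9 CPM (14.5 to 24.2) and 22.3 (14.7 to 32.4) in the crypt-base cells. The remaining epithelial cells had 34.2 and 40.1 CPM, the dividing crypt-base cells 13.2 and 12.0, and free RNA 30.1 and 33.5. The cells mix genotypes in unknown shares, since most had no tag, and counts from the 3′ end do not check the knockout where the removed exons are not known. Of 14 measured desmosome and adherens junction genes, 1 was lower than in the remaining epithelium and 0 higher (median -0.53). These counts are near the shares of all genes (6.20% lower and 3.17% higher) and do not set the list apart. The lower gene was Dsg2, a desmosomal cadherin, at 103 and 103 CPM against 220 and 291. Desmoplakin (Dsp) was at 135 and 141 CPM against 166 and 191, and E-cadherin (Cdh1) at 244 and 225 against 313 and 338.

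The study was directed at the inflammasome and p38 kinase, by its title. Of 17 measured inflammasome and interleukin 1 genes, 6 were lower than in the remaining epithelium and 0 higher (median -0.61), beside 6.20% and 3.17% of all genes. Il18, an interleukin 1 family cytokine, was at 46.2 and 53.6 CPM against 201 and 235. The pore-forming gasdermin Gsdmd was at 21.6 and 19.8 CPM against 59.2 and 78.1. The other lower genes were the gasdermins Gsdmc2 and Gsdmc4, the inflammasome gene Naip1 and the receptor antagonist Il1rn. The sensors and adaptors Nlrp6 (98.2 and 95.6 CPM against 66.3 and 64.1), Aim2 (82.9 and 55.2 against 66.3 and 64.6) and Pycard (427 and 521 against 542 and 425) and the protease Casp1 (90.4 and 96.4 against 135 and 154) did not reach 2-fold. Against the dividing crypt-base cells none of 16 measured genes of this list passed (median 0.08), which is near the shares of all genes (0.214% higher and 2.64% lower). Of the p38 list 0 of 13 genes passed in either direction against the remaining epithelium, near the 3.17% and 6.20% of all genes, which does not set the list apart. P38 alpha (Mapk14) was at 30.0 and 23.9 CPM against 28.1 and 29.8, and p38 delta (Mapk13) at 127 and 148 against 223 and 261.

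In the lists of handling and metabolism the counts were near the shares of all genes (3.17% higher and 6.20% lower than the remaining epithelium, 0.214% and 2.64% against dividing cells) and do not set these lists apart. Of dissociation stress genes 0 of 15 passed against the remaining epithelium (median 0.15) and 0 of 14 against dividing cells (median 0.62). Fos, an immediate early gene, was at 539 and 769 CPM, against 596 and 624 in the remaining and 340 and 480 in the dividing cells. None of 13 unfolded protein response genes passed (median -0.59). Of 17 fatty acid oxidation and ketogenesis genes 1 was lower, the mitochondrial carnitine carrier Slc25a20 at 33.0 and 38.7 CPM against 107 and 145. None of 10 measured Hox and position genes passed (median 0.34), with the distal colon gene Hoxb13 at 72.9 and 142 CPM against 84.1 and 97.4. Outside these lists, 2 of 12 simple epithelium genes were lower, beside 6.20% of all genes. They were Krt19 and Krt8, and the gate used Krt8.

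Hashtags named the condition of few members. No tag was called on 173 of 202 crypt-base cells of batch 1 (85.6%, 80.0 to 90.2) and 53 of 61 of batch 2 (86.9%, 75.8 to 94.2), and more than 1 on 3 and 1. Untagged cells were 74.2% and 71.8% of all epithelial cells. The antibody medians of the members were close to those of the remaining epithelium. TG_DSS was at 285.5 UMIs against 291 in batch 1 and 184 against 183 in batch 2. Leukocyte-gated cells had higher medians for TG_DSS (922 and 784) and, in batch 2, for TG_WT (55 against 19 in the remaining epithelium). Their other medians were not higher. Ctrl_WT was at 122 and 22 against 126 and 23, Ctrl_DSS at 88 and 66 against 103 and 83, and TG_WT at 14 against 14 in batch 1.

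Among tagged cells of batch 1 the crypt-base share of epithelial cells was 0 of 71 for Ctrl_WT (3 cells would be 4.23%, and the exact upper bound is 5.06%), 5 of 299 for Ctrl_DSS (1.67%, 0.55 to 3.86), 8 of 301 for TG_WT (2.66%, 1.15 to 5.17) and 13 of 334 for TG_DSS (3.89%, 2.09 to 6.56). In batch 2 it was 1 of 53 for Ctrl_WT (1.89%), 3 of 335 for Ctrl_DSS (0.896%), 1 of 160 for TG_WT (0.625%) and 2 of 140 for TG_DSS (1.43%). The intervals of the 4 tags overlapped within each batch. They cover counting error over cells only, with 1 pool a batch, and so cannot show whether the conditions differ. Over all epithelial cells the share was 4.30% (3.74 to 4.92) in batch 1 and 2.21% (1.69 to 2.83) in batch 2. Shares are of cells after dissociation, a viability sort and tagging.

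**Figure D5:**
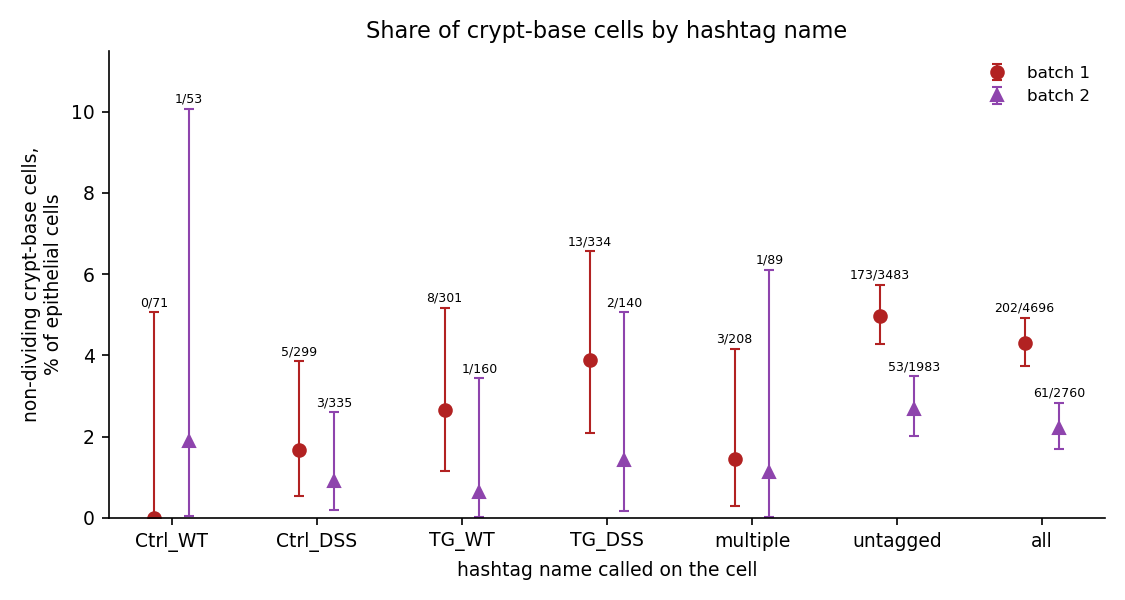
Non-dividing crypt-base cells as a percentage of epithelial cells under each hashtag name in batch 1 (circles) and batch 2 (triangles), with exact Clopper-Pearson 95% intervals and the cell numbers above them. The 4 tag names hold 0 to 13 crypt-base cells in a batch, and untagged cells hold 173 and 53.

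No tag had 10 crypt-base cells in both batches, nor 5, so no gene was tested between conditions in these cells. The shares were not tested. In the largest tagged set, the 13 TG_DSS cells of batch 1, Jup had 0 UMIs in 239200 (upper limit 15.4 CPM), beside 20.1 CPM (15.3 to 26.1) in the untagged members. The 2 TG_DSS cells of batch 2 also had 0. These calls depend on the rule, with a TG_DSS threshold of 429 UMIs in batch 1 beside a median of 285.5 in all members. Where the highest tag, scaled to its median, had to be 3-fold above the next, 1 member of batch 1 was called TG_DSS. The 0 UMIs of Jup are therefore not a readout of the knockout. In the 8 TG_WT cells Jup was at 39.5 CPM (10.8 to 101) and in the 5 Ctrl_DSS cells at 19.6 (2.37 to 70.7). Lgr5 was at 62.7 CPM (35.1 to 103), 79.0 (34.1 to 156) and 29.3 (6.05 to 85.8) in the same 3 sets. With so few cells the intervals of all 3 sets overlapped for both genes.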

How the data were processed

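The matrices were deposited by the authors as raw UMI counts per gene (32285) and per antibody (4), for every barcode. The submitters' processing notes name Cell Ranger 7.0.0 and mm10, with no annotation release. Of the gene identifiers, 99.6% were in GENCODE M21, the source of the coordinates.

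Cells were gated with the limits in the text (Python 3.11.15, numpy 2.4.6, pandas 2.3.3, scipy 1.17.1). Epithelial cells met the Epcam and Krt8, Ptprc, and S100a8 and S100a9 limits. Leukocyte-gated cells had Ptprc but no Epcam or Krt8. Tags were called per batch by a 2-component mixture (scikit-learn 1.9.0), and cells over more than 1 threshold were named multiple. No doublet caller was run. Of the 13158 cells, 13 barcodes occurred in both batches. The fold rule was run on simulated Poisson counts of summed cells with known folds. These counts hold no variation between cells, so the run does not cover genes whose level rests on a few cells. Intervals cover counting error only.

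Members, markers and 29 gene lists were chosen with earlier results of these data known. Named genes are the gate's and the label's, up to 4 genes per list with the highest CPM, list genes past 2-fold, and up to 20 genes a side with the largest ratios and at least 50 CPM. Other genes (such as Prom1, Olfm4, Aim2, Chrm3, Id3, Mcm2, Bmi1, Tert, Hoxb13, Iigp1 and H2-K1), named for their role, and the class II split were chosen after values were seen. The planned tests between tags, on sums of 10 or more cells, were not run because 0 tags had them in both batches.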

Additional observations from a re-analysis of the deposited data

How the results depend on the processing

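Every planned test between tags and its alternatives, the leaving out of tag sums included, was not run, because 0 tags had 10 or 5 crypt-base cells in both batches. No paired analysis was possible because no gene was tested, and the shares, which every tag has in both batches, were given without a test. The share of crypt-base cells depended on the gate: with 3 or more stem gene UMIs it was 2.92% and 1.45% of epithelial cells in batches 1 and 2, against 4.30% and 2.21%, and with mitochondrial UMIs at 10% or less it was 5.17% in batch 1. Thinned to 3000 UMIs before gating, it was 1.56% and 0.713%, with 1.47% for Ctrl_WT (1 of 68 cells), 0.685% for Ctrl_DSS, 0.730% for TG_WT and 0.658% for TG_DSS in batch 1, another order than before thinning, and 0% for Ctrl_WT, Ctrl_DSS and TG_WT in batch 2. The highest-tag rule moved no share beyond its interval, but left 1 of 19 cells for TG_DSS in batch 1 (5.26%) in place of 13 of 334. Of the summed list levels, as mean log2 ratios to the remaining epithelium, 2 moved when the 13 cells with other types' transcripts were left out, an alternative chosen after seeing the data: tuft from 2.60 to -0.11 and stromal from 0.57 to -2.93. Leaving out either batch gave ranges of -1.93 to -0.30 for MHC class II, 0.51 to 1.08 for S phase, -1.91 to -0.58 for G2 and M phase, 2.245 to 2.96 for tuft and -0.36 to 1.502 for stromal, the last with a change of sign. Against remaining cells with no stem gene UMI, also chosen after seeing the data, ratios were 2.80 for Htr4, 2.57 for Kcnq1 and 2.27 for Slc12a2, from 2.44, 2.24 and 1.89, and as a mean over cells Slc12a2 was 2.22. The other 85 values computed under alternatives moved by less than their spread or interval, 9 of them for each batch left out, where this follows from a spread taken over the same 2 batches. With 61 members in batch 2, genes under a few CPM cannot be told from 0.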
